A study of Homo sapiens with 12 samples.

Results

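Messenger RNA levels of 10 genes of the bone morphogenetic protein (BMP) pathway were followed in PE/CA-PJ41, a human oral squamous cell carcinoma line. The genes were 2 ligands (BMP2 and BMP4), the 4 inhibitors of DNA binding (ID1, ID2, ID3 and ID4), 2 inhibitors of the signal (SMAD6 and BAMBI) and 2 homeobox targets (MSX1 and MSX2). They were chosen by name, and all 10 were found among the 20375 genes listed for each library. Of these, 8 reached at least 1 TPM (a transcript level scaled to transcript length and to the library's total) in at least 4 of 12 libraries and were among the 12517 genes tested. ID4 and BAMBI lay below that limit.

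The study measured polyadenylated RNA by sequencing in 3 groups of 4 libraries. Control cells received no addition, plasma cells received human plasma at 10% and PRP cells received platelet-rich plasma at 10%. Both additions lasted 48 h, and no culture time is given for control, so the times may not match. Whether the replicates were cultured apart is not stated, and a p-value here therefore reflects how far libraries scatter, possibly for technical reasons alone. All libraries came from 1 cell line, and the donors and platelet content of the additions are not described in the labels.

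BMP ligands bind pairs of type I and type II serine/threonine kinase receptors, which phosphorylate SMAD1, SMAD5 and SMAD9. These enter the nucleus with SMAD4 and switch on early targets, of which the ID genes are among the best known. ID proteins have no DNA-binding part of their own. They capture the E proteins, which partner other basic helix-loop-helix factors, and in squamous epithelium they are associated with the undifferentiated, proliferating state. SMAD6 and BAMBI are themselves targets that dampen the pathway.

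The stretches of 250 bases before the start of ID1, SMAD6 and BMP4 are shown. ID1 was higher and BMP4 lower after both additions. SMAD6 passed no test, which also holds for MSX1, and its stretch held the only match to GTCTAGAC, described below. For ID3, which was lower, only 30 bases near its start are given. The sequences were taken from RefSeq on GRCh38.p14, where 9 of the 10 genes had an entry (BMP2 did not). A set of 4 short motifs was searched on both strands, and capitals mark their matches: GGCGCC, a GC-rich sequence bound by BMP-activated SMADs; GTCTAGAC, the palindromic SMAD element; TATAAA, the TATA box; and CCAAT, which reads ATTGG on the other strand.
ID1, chr20:31605039-31605288, plus strand: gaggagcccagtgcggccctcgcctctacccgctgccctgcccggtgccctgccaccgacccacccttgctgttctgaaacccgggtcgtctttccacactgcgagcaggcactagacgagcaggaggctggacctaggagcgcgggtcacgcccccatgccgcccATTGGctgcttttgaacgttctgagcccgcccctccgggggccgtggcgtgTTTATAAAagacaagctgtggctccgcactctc
SMAD6, chr15:66701986-66702235, plus strand: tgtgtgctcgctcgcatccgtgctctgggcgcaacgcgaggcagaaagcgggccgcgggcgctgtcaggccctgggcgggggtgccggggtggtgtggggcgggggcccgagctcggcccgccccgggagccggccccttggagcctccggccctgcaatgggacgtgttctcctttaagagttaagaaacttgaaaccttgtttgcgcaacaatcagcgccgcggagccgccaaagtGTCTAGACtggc
BMP4, chr14:53955051-53955300, minus strand, 1 of 3 starts in the table: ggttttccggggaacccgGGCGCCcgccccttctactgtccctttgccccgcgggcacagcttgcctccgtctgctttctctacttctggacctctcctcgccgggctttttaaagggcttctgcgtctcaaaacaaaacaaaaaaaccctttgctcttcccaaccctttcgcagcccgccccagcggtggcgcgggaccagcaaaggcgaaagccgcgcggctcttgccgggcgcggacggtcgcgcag
ID3, chr1:23559508-23559537, minus strand, ending 6 bases before the start: caggctctataagtgaccgccgcggcgagc
In ID1 the capitals TTTATAAA hold 2 overlapping matches, TATAAA and its reverse complement TTTATA, which begin 31 and 33 bases before the start, and a CCAAT match begins 84 bases before it. TATAAA was found in 10.7% of 35116 such stretches of 250 bases and CCAAT in 32%. Of the other 8 genes with an entry, ID4 alone held TATAAA, 29 bases before its start. The single GTCTAGAC among these genes lay 12 bases before SMAD6, and 0.182% of all stretches held one. GGCGCC, present in 16.4% of all stretches, was found once in the BMP4 stretch shown and 3 times before BAMBI. The stretches before the other BMP4 starts held none of the 4 motifs, so this match depends on the start chosen. The BMP4 stretch shown also lies within the outer bounds of the gene given below. The 250 bases before ID3 held none of the 4. In GENCODE, another gene annotation, all 250 lie within an exon of ID3, so they need not lie before its start. Annotated exons there also cover 229 of the 250 bases for ID2, 179 for BAMBI, 49 for MSX2, 8 for SMAD6 and 6 for ID1. The 8 bases for SMAD6 are those next to its start, so they hold part of its GTCTAGAC match. A match describes these letters only.

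Control libraries held between 40166503 and 41531218 estimated reads, plasma libraries 36258955 to 41946780 and PRP libraries 36943548 to 41976136. The library numbered 1 had the smallest share of mitochondrially encoded reads in each group, 0.191% to 0.286%, against 0.463% to 0.969% in the others. Those numbered 2 came next in each group, at 0.487%, 0.476% and 0.463% in control, plasma and PRP. Values without the 3 libraries numbered 1 are given where a named gene's call changed, which does not remove the rest of this order. The squamous epithelial markers fitted the label of the line, with 8 of 8 at 1 TPM or more in every group (KRT5, KRT14, KRT6A, KRT17, TP63, EPCAM, CDH1 and SFN). Their summed level was 11500 to 12900 TPM in control, against 14100 to 15500 (plasma) and 14200 to 15700 (PRP). Its members went both ways, with KRT5 at 4530 to 5060, 7330 to 8160 and 7270 to 8290 TPM and KRT17 at 2570 to 2950, 1750 to 1820 and 1620 to 1680 TPM in the same order. Of the markers of blood cells, the platelet transcripts PF4, GP9 and TREML1, the erythroid HBB and ALAS2 and the leukocyte FCGR3A and NKG7 had 0 reads in all 12 libraries. The 8 platelet markers summed to 0.488 to 0.718 TPM in control, against 0.353 to 1.36 (plasma) and 0.424 to 1.28 (PRP). GP1BB, GP1BA and PPBP were at 0 TPM in every control library. They reached at most 0.714, 0.0168 and 0 TPM with plasma and 0.967, 0.0379 and 0.104 TPM with PRP. ITGA2B lay at 0.438 to 0.693, 0.353 to 0.634 and 0.305 to 0.347 TPM in control, plasma and PRP. TUBB1 reached at most 0.0648, 0.0116 and 0.0418 TPM. The 6 erythroid markers summed to at most 2.85, 1.92 and 2.90 TPM in the same order. The 8 leukocyte markers summed to 41.1 to 52.3 TPM in control, against 73.2 to 89.6 (plasma) and 72.3 to 84.6 (PRP), of which CD68 made up 37.1 to 49.4, 67.9 to 82.9 and 65.3 to 77.4 TPM. CD14 went the same way as CD68, at 1.02 to 2.72, 3.95 to 5.6 and 4.23 to 6.27 TPM. PTPRC, a marker of all leukocytes, went the other way, at 0.481 to 0.774, 0.0342 to 0.14 and 0.0212 to 0.0982 TPM. The 5 fibroblast markers summed to 16.3 to 21.7, 13.7 to 17.2 and 12.8 to 14.6 TPM. The part of these markers in the results below was not tested. In bulk RNA, fewer cells of a type and less RNA per cell cannot be told apart.

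Across the 10 genes, levels in control spanned from 183 TPM for ID1 to 0.166 TPM for ID4. ID1 and ID3 stood together at the top, followed by BMP4 at 33.1, BMP2 at 7.74, MSX2 at 7.20, SMAD6 at 3.74, MSX1 at 2.41, ID2 at 2.39, BAMBI at 0.464 and ID4. In control the libraries of neighbours in this order overlapped for ID1 and ID3, for BMP2 and MSX2, and for MSX1 and ID2. The order by mean was the same in plasma and PRP. There ID1 and ID3 no longer overlapped, nor did BMP2 and MSX2. Overlaps in plasma were between MSX1 and ID2 and between ID2 and BAMBI, and in PRP between SMAD6 and MSX1.

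**Figure D1:**
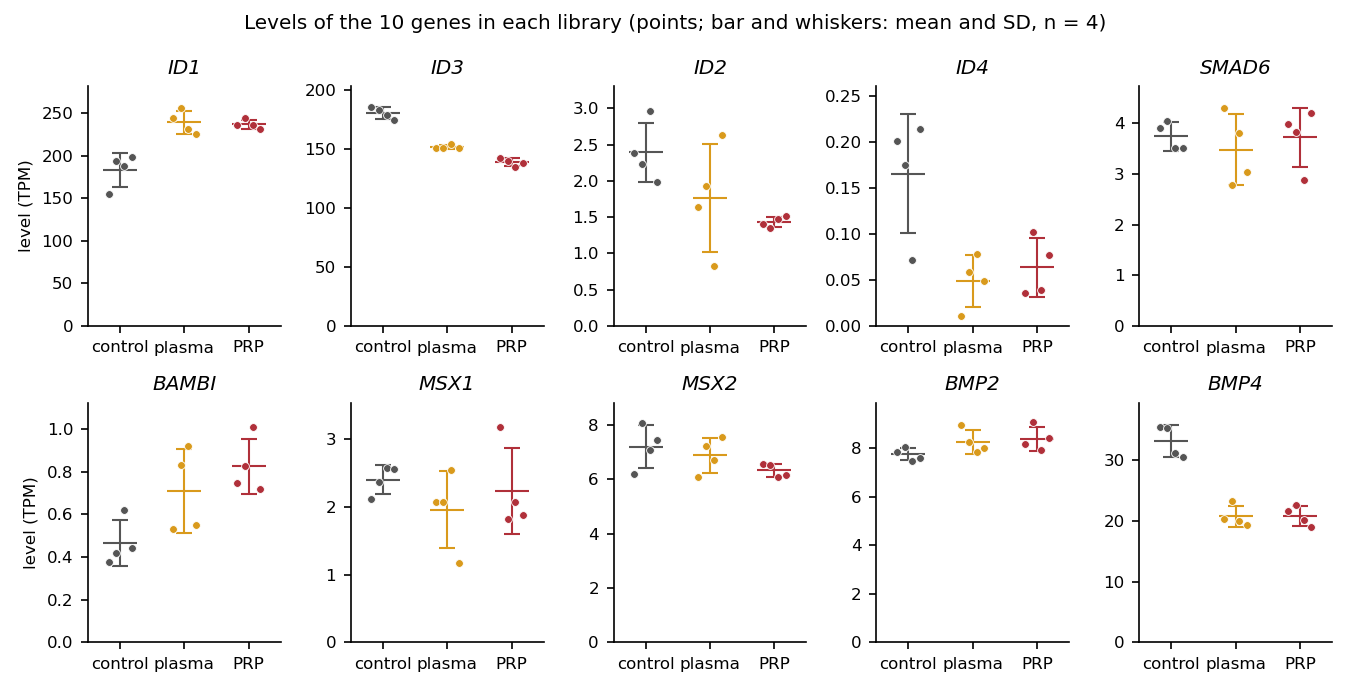
Level of each of the 10 genes (vertical axis, TPM, starting at 0 and scaled per gene) in the 4 libraries of control, plasma and PRP (points), with mean and SD. ID1 lies higher and ID3 and BMP4 lie lower in all 8 treated libraries than in the 4 control libraries.

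The comparison of treated with untreated cells asks which of these genes responded to blood plasma or to PRP. After both additions ID1 was about 1.3-fold higher and BMP4 fell to about 63% of its control level. ID3 was lower by a smaller amount. With plasma 3 of 8 tested genes passed limma at an adjusted p under 0.05 (37.5%), ID1 higher and ID3 and BMP4 lower. Over all tested genes 49.3% passed, 20.3% higher and 29% lower, so this count is no larger than the background. With PRP 4 of 8 passed (50%), the same 3 genes in the same directions and ID2 as lower, against a background of 53.1%, 21.7% higher and 31.5% lower. The median log2 difference of the 8 genes was -0.16 with plasma and -0.12 with PRP, beside -0.05 and -0.06 over all tested genes. Both comparisons use the same control libraries, so they are not independent of each other.

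BMP4 (chromosome 14, 53949736 to 53956891, GRCh38.p14), a secreted ligand that acts through BMPR1A and BMPR1B, had levels of 35.4, 35.3, 31.2 and 30.6 TPM in control. With plasma it was at 20.3, 23.3, 20.05 and 19.3 TPM, and with PRP at 21.6, 22.7, 20.1 and 19.0 TPM. Every treated library lay below every control library, while plasma and PRP overlapped. Over all tested genes such separation from control was found for 43.9% with plasma, 18.2% higher and 25.7% lower, and for 46.8% with PRP, 19% higher and 27.8% lower. The mean went from 33.1 ± 2.60 (SD, n = 4) to 20.7 ± 1.77 and 20.8 ± 1.63 TPM. On the log2(TPM + 1) scale BMP4 fell by 0.65 ± 0.07 (SE) with plasma (limma adjusted p = 8.16e-06) and by 0.64 ± 0.07 with PRP (limma adjusted p = 7.13e-06). Behind these values stood 1198 to 1292 estimated reads per control library and 698 to 882 per treated library.

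BMP2 (chromosome 20, 6767686 to 6780246), the closest relative of BMP4 among the ligands, had levels of 7.85, 8.03, 7.49 and 7.59 TPM in control. It was at 8.95, 8.23, 7.82 and 7.99 TPM with plasma and 8.15, 9.07, 7.94 and 8.40 TPM with PRP. The treated libraries overlapped control in both cases. The log2 difference was 0.08 with plasma (95% interval -0.06 to 0.22, limma adjusted p = 0.318) and 0.10 with PRP (-0.04 to 0.24, limma adjusted p = 0.196). Neither passed in the main fit, on TPM without further scaling. The PRP difference did pass after median centring (0.17, limma adjusted p = 0.0233), after quantile normalization (0.15, limma adjusted p = 0.0383) and when estimated reads were tested as log2 CPM (0.15, limma adjusted p = 0.0240). With voom on estimated reads both passed, at 0.16 with plasma (limma adjusted p = 0.0240) and 0.19 with PRP (limma adjusted p = 0.00774).

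ID1 (chromosome 20, 31605289 to 31606510) was the most abundant of the genes. Its level was 154, 193, 188 and 198 TPM in control, 244, 256, 231 and 226 TPM with plasma and 235, 244, 235 and 231 TPM with PRP. Control replicate 1 was the lowest library, and no treated library reached down to any control library. The mean went from 183 ± 19.8 (SD, n = 4) to 239 ± 13.3 and 237 ± 5.41 TPM, ratios of 1.30 and 1.29. ID1 rose by 0.39 ± 0.07 (SE) on the log2 scale with plasma (limma adjusted p = 0.000271) and by 0.37 ± 0.07 with PRP (limma adjusted p = 0.000314). Without the 3 libraries numbered 1 the differences were 0.30 and 0.29, and both still passed (limma adjusted p = 0.00061 and 0.000561). ID1 rested on 2905 to 4831 estimated reads per library.

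ID3 (chromosome 1, 23557926 to 23559501) stood at 186, 183, 179 and 174 TPM in control. It was at 151, 151, 154 and 150.48 TPM with plasma and at 142, 140, 134 and 138 TPM with PRP. The 3 groups were separate, with control highest and PRP lowest. The mean went from 180.3 ± 4.98 (SD, n = 4) to 151 ± 1.67 and 139 ± 3.30 TPM. ID3 fell by 0.25 ± 0.03 (SE) on the log2 scale with plasma (limma adjusted p = 1.97e-05) and by 0.38 ± 0.03 with PRP (limma adjusted p = 3.61e-07). Its estimated effective length, which enters TPM, was almost the same in all groups (shifts of 0.00 and -0.00 on the log2 scale), and the log2 difference in reads scaled to library size was -0.22 and -0.35.

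ID1 and ID3 thus moved in opposite directions. The ratio of ID1 to ID3 was 1.02 ± 0.132 (SD, n = 4) in control, 1.58 ± 0.0952 with plasma and 1.71 ± 0.0511 with PRP, a description of the 2 differences above. Control libraries gave ratios of 0.831 to 1.14, plasma libraries 1.5 to 1.70 and PRP libraries 1.65 to 1.75. Because the gain of ID1 was partly offset by the loss of ID3, the sum of the 4 ID genes moved less than either, at 366 ± 16.1, 392 ± 12.8 and 377 ± 6.74 TPM. Its ranges of 343 to 378, 379 to 408 and 371 to 385 TPM show that PRP overlapped both other groups. ID1 made up 49.98% ± 3.41 of that sum in control, 60.9% ± 1.42 with plasma and 62.8% ± 0.698 with PRP.

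**Figure D2:**
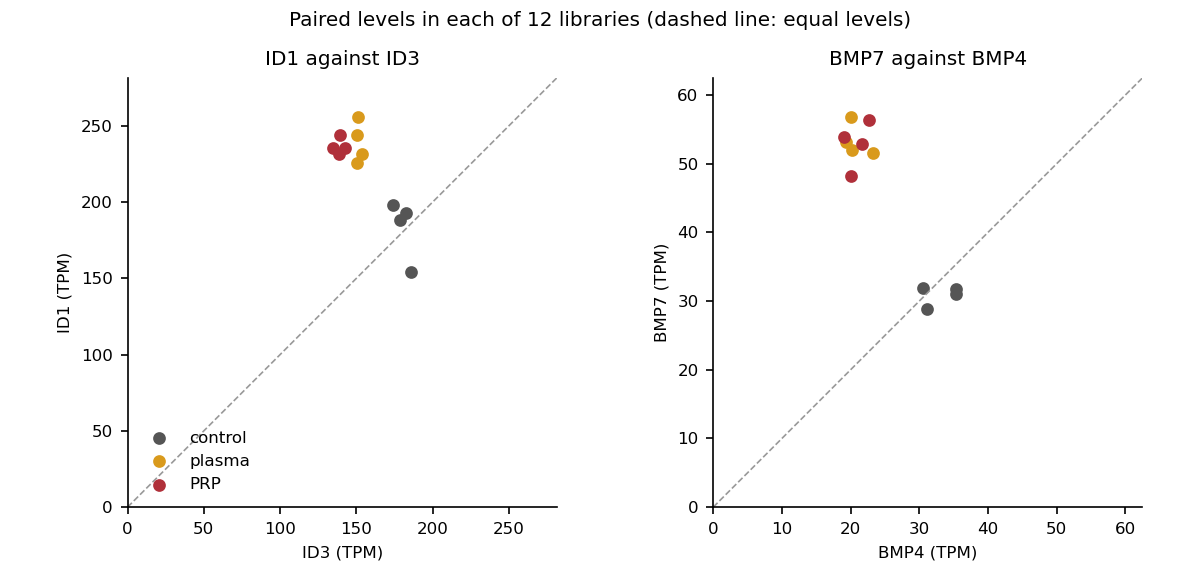
Levels of ID1 against ID3 (left) and BMP7 against BMP4 (right), both axes in TPM from 0, for the 12 libraries coloured by group, with a dashed line of equal levels. Control libraries lie near the line, with mean ratios of 1.02 and 0.937, and all treated libraries lie above it.

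ID2 (chromosome 2, 8682056 to 8684461) was close to the filter limit. It had levels of 2.39, 2.23, 2.96 and 1.99 TPM in control, 1.64, 1.93, 0.832 and 2.63 TPM with plasma and 1.40, 1.36, 1.47 and 1.51 TPM with PRP. Plasma libraries ran from well below control to within its range, whereas the PRP libraries lay close together below every control library. With PRP it fell by 0.47 ± 0.16 on the log2 scale (limma adjusted p = 0.0274), a ratio of means of 0.601. With plasma the difference was -0.33 (95% interval -0.69 to 0.02, limma adjusted p = 0.111). The PRP call ended after median centring (-0.41, limma adjusted p = 0.0561), after quantile normalization (-0.40), with voom (-0.45, limma adjusted p = 0.160), with log2 CPM (-0.49, limma adjusted p = 0.129) and without the libraries numbered 1 (-0.46, limma adjusted p = 0.0929). It also ended without control replicate 3, PRP replicate 1 or PRP replicate 2 (limma adjusted p = 0.0787, 0.0514 and 0.0578), and without plasma replicate 4 the plasma difference passed (-0.48, limma adjusted p = 0.0205). The gene rested on 55 to 64 reads per control library and 34 to 46 per PRP library. In control replicate 3, its estimated effective length was 687 bases, against 1025 to 1067 in the other 3. ID2-AS1, on the opposite strand, overlaps exons of ID2 in the annotation, and it is not known whether reads were counted by strand, so those of the pair cannot be told apart.

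ID4 (chromosome 6, 19837370 to 19842197), the fourth family member, was barely detected. Its level was 0.202, 0.176, 0.0717 and 0.215 TPM in control, from 19, 16, 7 and 21 reads. With plasma it was 0.0105, 0.0587, 0.0785 and 0.0491 TPM, from 1, 5, 8 and 5 reads, and with PRP 0.0354, 0.102, 0.0396 and 0.0777 TPM, from 3, 10, 4 and 8 reads. The lowest control library lay within the range of both treated groups. Summed over the group there were 63 reads in control, 19 in plasma and 25 in PRP. ID4 was not part of the main test. With no filter on low values (17662 genes) its difference was -0.15 with plasma (limma adjusted p = 0.0112) and -0.13 with PRP (limma adjusted p = 0.0206), values that the added 1 TPM shrinks.

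Of the inhibitors of the pathway, SMAD6 was part of the main test and BAMBI was not. SMAD6 (chromosome 15, 66702236 to 66782849), which blocks receptor and SMAD1 signalling inside the cell, had levels of 3.91, 4.05, 3.50 and 3.50 TPM in control, 4.30, 2.78, 3.8 and 3.03 TPM with plasma and 3.99, 3.83, 2.89 and 4.20 TPM with PRP. The groups overlapped widely. The log2 difference was -0.09 with plasma (95% interval -0.35 to 0.16, limma adjusted p = 0.540) and -0.01 with PRP (-0.27 to 0.24, limma adjusted p = 0.947), and with PRP its sign turned, to 0.05 after median centring, 0.07 after quantile normalization and 0.02 with voom. The plasma interval includes the size of the ID3 difference with plasma, and the PRP interval does not include that with PRP.

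BAMBI (chromosome 10, 28677521 to 28682932), a decoy receptor without a kinase, was low. It had levels of 0.378, 0.416, 0.621 and 0.442 TPM in control, 0.529, 0.832, 0.920 and 0.550 TPM with plasma and 0.748, 0.825, 1.01 and 0.716 TPM with PRP. All PRP libraries lay above all control libraries, whereas plasma overlapped control. The reads behind them summed to 70 in control, 107 in plasma and 126 in PRP. BAMBI was not part of the main test either. With no filter its difference was 0.22 with plasma (limma adjusted p = 0.0666) and 0.32 with PRP (limma adjusted p = 0.0110), and that between PRP and plasma was 0.10 (limma adjusted p = 0.876).

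The homeobox targets MSX1 and MSX2 encode transcriptional repressors that act downstream of BMP in craniofacial and ectodermal tissue. MSX1 (chromosome 4, 4859665 to 4863936) had levels of 2.11, 2.36, 2.58 and 2.57 TPM in control, 2.07, 2.07, 2.54 and 1.17 TPM with plasma and 3.18, 1.82, 2.08 and 1.89 TPM with PRP. A single plasma library lay far below the rest and a single PRP library above all others. Its log2 difference was -0.22 with plasma (95% interval -0.55 to 0.11, limma adjusted p = 0.249) and -0.09 with PRP (-0.41 to 0.24, limma adjusted p = 0.652).

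MSX2 (chromosome 5, 174724582 to 174730896) had levels of 6.20, 8.07, 7.08 and 7.46 TPM in control, 6.09, 7.21, 6.70 and 7.57 TPM with plasma and 6.55, 6.54, 6.07 and 6.16 TPM with PRP. Control replicate 1 fell within the PRP range, and the other 3 control libraries lay above it. The log2 difference was -0.05 with plasma (95% interval -0.23 to 0.12, limma adjusted p = 0.617) and -0.16 with PRP (-0.34 to 0.02, limma adjusted p = 0.125). With PRP the estimated effective length of MSX2 shifted by 0.09 on the log2 scale, and its reads scaled to library size differed by -0.06. Over the alternatives the PRP difference ran from -0.23 to -0.02. Without control replicate 1 the PRP difference passed (-0.22, limma adjusted p = 0.0388), as it did without the libraries numbered 1 (-0.23, limma adjusted p = 0.0373). So without those 3 libraries the count of called genes with PRP was again 4, with MSX2 in and ID2 out. The plasma difference was at 0.0025 after median centring.

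**Figure D3:**
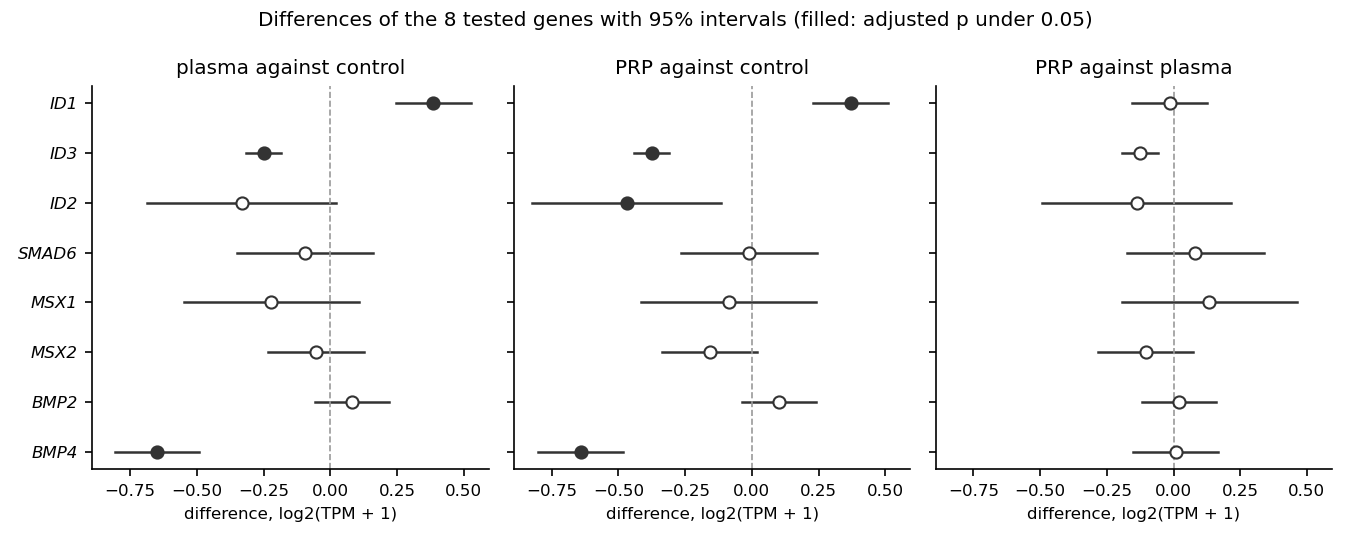
Difference in log2(TPM + 1) with its 95% interval (horizontal axis) for the 8 tested genes in the 3 comparisons, filled where the limma adjusted p was under 0.05. ID1 lies at 0.39 and 0.37, BMP4 at -0.65 and -0.64 and ID3 at -0.25 and -0.38 in the comparisons with control, and no gene is filled between PRP and plasma.

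PRP was compared with plasma directly, since platelets set the 2 additions apart by name. None of the 8 genes passed (0 with limma), and over all tested genes 8 passed, or 0.0639%, while 999 (7.98%) had an unadjusted p under 0.05. Among the 8, ID3 alone had an unadjusted p under 0.05 and groups that did not overlap. It was lower with PRP by a log2 difference of -0.13 ± 0.03 (SE, 95% interval -0.19 to -0.06, limma adjusted p = 0.257). Groups did not overlap for 5.22% of all tested genes, 2.59% with PRP lower. For BMP4 the difference was 0.01 (95% interval -0.15 to 0.17) and for ID1 -0.01 (-0.16 to 0.13). For ID2 it was -0.14 (-0.49 to 0.22), so a call with PRP and none with plasma does not show that the additions differed.

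The rest of the pathway was examined through 68 further genes, of which 38 could be tested. Plasma gave 2 higher and 15 lower calls (44.7%) and PRP 2 higher and 11 lower (34.2%), against the background of 49.3% (20.3% higher, 29% lower) and 53.1% (21.7% higher, 31.5% lower). The split depended on scaling, with 4 higher and 11 lower after median centring and 5 and 15 with voom for plasma, and 3 and 8 after median centring, 5 and 11 with voom and 5 and 13 with log2 CPM for PRP. Without the 3 libraries numbered 1 the counts were 2 and 9 with plasma and 2 and 8 with PRP. DLX2, counted as lower with plasma and with PRP, entered the test only through its control libraries. Between PRP and plasma 0 of 38 passed with limma. The median log2 difference of the 38 was -0.11 with plasma and -0.12 with PRP.

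Among 12 other ligands only BMP7 and BMP8B could be tested. BMP7, a ligand that can signal through ACVR1, had levels of 31.0, 31.8, 28.9 and 31.9 TPM in control, 51.9, 51.6, 56.8 and 53.2 TPM with plasma and 52.9, 56.5, 48.2 and 53.9 TPM with PRP. All treated libraries lay above all control libraries. It rose by 0.77 ± 0.05 (SE) with plasma (limma adjusted p = 9.91e-08) and by 0.75 ± 0.05 with PRP (limma adjusted p = 8.84e-08), the opposite direction to BMP4. Its estimated effective length was shorter after both additions (log2 shifts of -0.19 and -0.20), and on reads scaled to library size the differences were 0.64 and 0.61. As a description, the ratio of BMP7 to BMP4 was 0.937 ± 0.0747 (SD, n = 4) in control, 2.59 ± 0.276 with plasma and 2.54 ± 0.201 with PRP. The sum of BMP2, BMP4 and BMP7 was 71.7 ± 3.55, 82.4 ± 1.92 and 82.1 ± 4.94 TPM. BMP8B fell with plasma, from 3.38 ± 0.230 to 2.76 ± 0.134 TPM (limma adjusted p = 0.0340), and was 2.997 ± 0.289 TPM with PRP (limma adjusted p = 0.177). The plasma call of BMP8B ended after median centring and quantile normalization (limma adjusted p = 0.0859 and 0.0959), without the libraries numbered 1 (limma adjusted p = 0.0659) and without control replicate 2 or 3 or plasma replicate 2, 3 or 4 (limma adjusted p = 0.0564 to 0.0906).

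Of 9 tested receptors and coreceptors 0 rose. With plasma 3 fell (33.3%) and with PRP 4 fell (44.4%), against 29% and 31.5% lower over all tested genes. BMPR1B, a type I receptor, went from 4.81 ± 0.640 to 3.34 ± 0.595 and 2.96 ± 0.372 TPM (limma adjusted p = 0.00864 and 0.00140), and its plasma call ended without the libraries numbered 1 (-0.30, limma adjusted p = 0.0664). ACVR1, the type I receptor used by BMP7, went from 25.3 ± 2.71 to 21.0 ± 1.84 and 21.4 ± 1.01 TPM (limma adjusted p = 0.0143 and 0.0244). The PRP call of ACVR1 ended without the libraries numbered 1 (-0.21, limma adjusted p = 0.0570) and without control replicate 1 or 2 or PRP replicate 3 or 4 (limma adjusted p = 0.0524 to 0.0809). RGMA, a membrane-anchored coreceptor, went from 2.96 ± 0.135 to 2.05 ± 0.151 and 2.08 ± 0.150 TPM (limma adjusted p = 0.00130 and 0.00153). ACVR2B, a type II receptor, passed with PRP (1.71 ± 0.291 and 1.198 ± 0.150 TPM, limma adjusted p = 0.0307) and not with plasma (1.30 ± 0.226 TPM, limma adjusted p = 0.0804). Its PRP call ended after median centring and quantile normalization (limma adjusted p = 0.05002 and 0.0727), without the libraries numbered 1 (limma adjusted p = 0.112) and without control replicate 1 or 2 or PRP replicate 4 (limma adjusted p = 0.0733 to 0.0957). The plasma difference of ACVR2B passed with voom and log2 CPM (limma adjusted p = 0.0246 and 0.0164) and without plasma replicate 1 (limma adjusted p = 0.0454). It also passed with the replicate number added to the fit (limma adjusted p = 0.0490). The others did not pass in the main fit in either comparison. ACVR2A passed in both with log2 CPM (limma adjusted p = 0.0370 and 0.0256). BMPR2 passed with PRP when the replicate number was added to the fit (-0.16, limma adjusted p = 0.0433). BMPR1A, another type I receptor, was at 21.4 ± 0.323, 19.97 ± 0.823 and 20.8 ± 0.799 TPM in control, plasma and PRP. The type II receptors BMPR2 and ACVR2A stood at 10.1 ± 1.57, 9.10 ± 1.52 and 8.89 ± 1.58 TPM, and at 5.06 ± 0.853, 4.81 ± 0.545 and 4.61 ± 0.297 TPM. RGMB was at 21.5 ± 0.936, 20.7 ± 0.833 and 20.003 ± 0.588 TPM, and NEO1, which binds RGM proteins, at 5.65 ± 1.104, 4.88 ± 0.685 and 5.05 ± 0.780 TPM.

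Of the SMADs that carry the signal, SMAD5 fell from 51.1 ± 2.42 TPM to 38.4 ± 3.38 (plasma) and 37.6 ± 2.93 (PRP) (limma adjusted p = 0.000222 and 0.000105). SMAD1, its near-equivalent, was at 27.4 ± 2.77, 27.7 ± 2.54 and 25.2 ± 0.898 TPM and did not pass (limma adjusted p = 0.874 and 0.222). SMAD4, the shared partner, fell with plasma from 3.61 ± 0.448 to 2.58 ± 0.221 TPM (limma adjusted p = 0.00925) and was 3.004 ± 0.432 TPM with PRP (limma adjusted p = 0.104), where its effective length shifted by -0.21 on the log2 scale. The plasma call of SMAD4 ended without the libraries numbered 1 (-0.33, limma adjusted p = 0.0556). Its PRP difference passed with voom and log2 CPM (-0.40 and -0.44, limma adjusted p = 0.00147 and 0.000736), and without control replicate 3 or PRP replicate 4 (limma adjusted p = 0.0405 and 0.0499).

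Of 9 tested secreted antagonists and modulators 1 was higher and 5 were lower with plasma, and 1 was higher and 3 were lower with PRP. These calls made up 66.7% and 44.4% of the list, against 49.3% and 53.1% called over all tested genes. NBL1, a secreted BMP antagonist of the DAN family, rose from 101 ± 10.2 to 141 ± 6.44 and 137 ± 2.05 TPM (limma adjusted p = 1.20e-05 and 2.07e-05). CRIM1, a membrane protein that binds BMPs in the producing cell, fell from 88.0 ± 15.2 to 58.2 ± 7.15 and 55.7 ± 6.76 TPM (limma adjusted p = 0.00119 and 0.000468). TWSG1, which modulates BMP binding to chordin, fell from 124 ± 4.47 to 113 ± 3.55 and 113 ± 1.41 TPM (limma adjusted p = 0.00709 and 0.00916), and both calls ended after median centring (-0.07 and -0.06, limma adjusted p = 0.150 and 0.246) and with voom (limma adjusted p = 0.135 and 0.189). FSTL1, a secreted follistatin-like glycoprotein, was at 86.2 ± 11.7, 79.6 ± 7.20 and 69.0 ± 4.68 TPM in control, plasma and PRP, and passed with PRP only (limma adjusted p = 0.325 and 0.00878). The direct PRP against plasma difference did not pass for any of these 9 genes.

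Of 6 intracellular brakes 2 fell with plasma (33.3%) and 1 with PRP (16.7%), against 29% and 31.5% lower over all tested genes. PPM1A, a phosphatase of SMADs, went from 67.7 ± 2.95 to 59.3 ± 3.07 and 57.8 ± 1.96 TPM (limma adjusted p = 0.00427 and 0.00112). SMAD7, the general inhibitory SMAD, fell with plasma from 3.17 ± 0.367 to 2.25 ± 0.225 TPM (limma adjusted p = 0.0166) and was 2.57 ± 0.543 TPM with PRP (limma adjusted p = 0.0924). The plasma call of SMAD7 ended without control replicate 1 (limma adjusted p = 0.0514), and the PRP difference passed with voom and log2 CPM (limma adjusted p = 0.00522 and 0.00349) and without PRP replicate 2 (limma adjusted p = 0.0276). Of 6 other tested targets 2 were called lower after both additions (33.3% in each, against the same shares of all tested genes). HEY1, a repressor of the Hairy family, went from 7.26 ± 0.701 to 5.35 ± 0.434 and 5.93 ± 0.353 TPM (limma adjusted p = 0.00151 and 0.0175). The PRP call of HEY1 ended under all 4 other scalings or read-based fits (limma adjusted p = 0.0549 to 0.113) and without control replicate 2 or 4 or PRP replicate 2 (limma adjusted p = 0.0524 to 0.0549). DLX2, a homeobox factor, was at 1.48 ± 0.338, 0.588 ± 0.0808 and 0.585 ± 0.102 TPM in control, plasma and PRP. It met the filter only through its control libraries, the group where it was high, and no treated library reached the limit. Its calls as lower therefore depend on that choice and are not taken as support. DLX2 fell below the filter when any control library was left out. The E proteins TCF3, TCF4 and TCF12, which ID proteins bind, gave 0 calls of 3 in either comparison in the main fit with limma. TCF4 was higher and passed in both with voom (limma adjusted p = 0.00321 and 0.00308) and log2 CPM (limma adjusted p = 0.00376 and 0.00379). TCF3 was higher and passed in both with voom (limma adjusted p = 0.0271 and 0.00502) and, with PRP, in log2 CPM (limma adjusted p = 0.0163). With plasma TCF3 also passed after median centring (limma adjusted p = 0.0492) and without control replicate 4 (limma adjusted p = 0.0366).

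**Figure D4:**
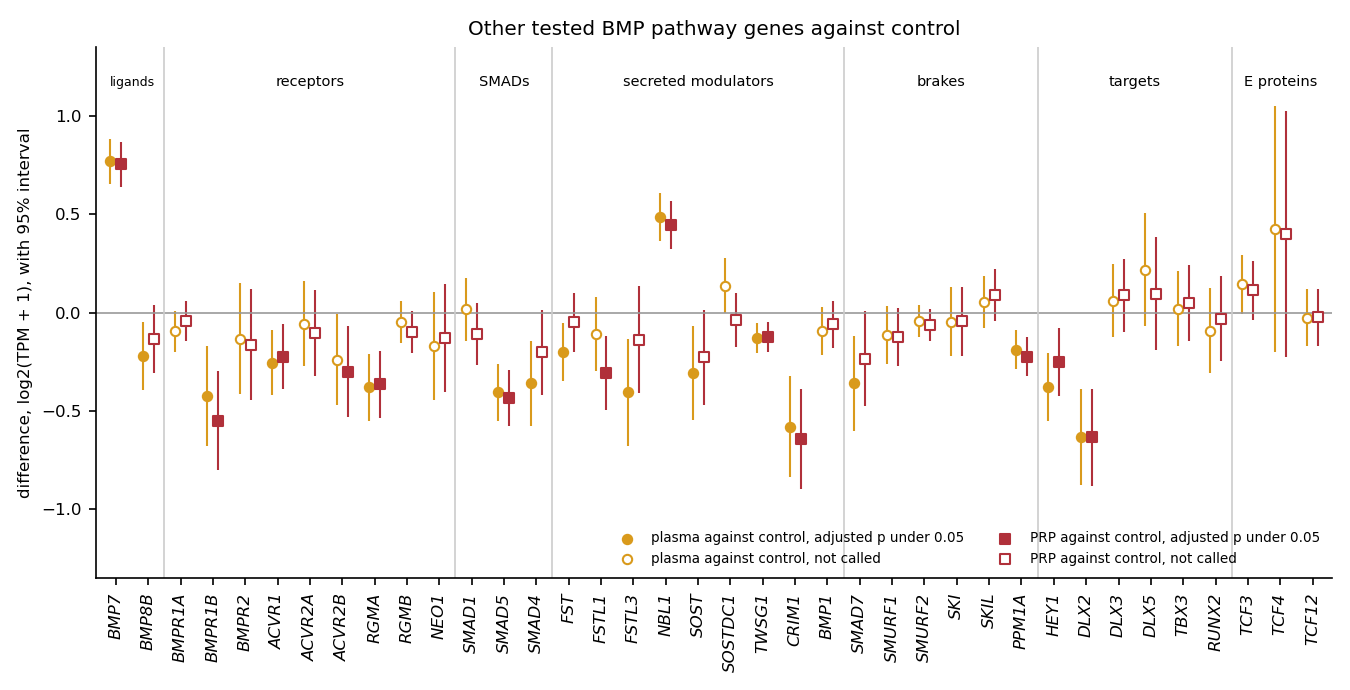
Difference from control in log2(TPM + 1) with its 95% interval (vertical axis) for the 38 other tested pathway genes, grouped by role, with plasma as circles and PRP as squares, filled where the limma adjusted p was under 0.05. BMP7 and NBL1 are the 2 filled genes above 0, and all other filled genes lie below it.

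Genes with the pattern most like each member were ranked by Pearson's r of log2(TPM + 1) over the 12 libraries, which share 3 treatment groups. For a member that differs between control and treated cells, other genes differing in the same direction therefore tend to rank high. For ID1 the 5 nearest of 12516 genes were LEO1 (r = 0.969), PUDP (0.968), CXCL8 (0.958), SGK1 (0.958) and TFG (0.958). CXCL8 stood at 17.1 ± 2.48, 33.0 ± 6.23 and 30.05 ± 1.9995 TPM in control, plasma and PRP, and SGK1 at 32.5 ± 3.85, 49.6 ± 4.20 and 49.95 ± 2.11 TPM. The gene nearest to BMP4 was F2R (r = 0.986), which encodes a thrombin receptor, at 28.1 ± 2.10, 16.4 ± 0.967 and 15.97 ± 1.04 TPM. For ID3 it was ENTPD8 (r = 0.984), at 4.54 ± 0.273, 3.04 ± 0.159 and 2.45 ± 0.108 TPM, in the same descending order from control to PRP. The nearest gene was CEP162 for ID2 (r = 0.875), TBC1D12 for SMAD6 (0.899), ARIH2 for MSX1 (0.905) and CNIH2 for MSX2 (0.830). Among the members themselves ID3 and BMP4 were the most alike (r = 0.911), yet BMP4 held rank 672 of 12516 genes for ID3. ID1 ran opposite to both, with r = -0.856 for ID3 and -0.844 for BMP4.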

How the data were processed

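RNA was measured in 12 libraries, 4 per group. Per the labels, polyadenylated RNA from RNeasy extracts went into Watchmaker mRNA libraries. The submitters' processing notes name Salmon and hg38, and no transcript set is given in the sources used here. Per the file headers, the deposited values are transcript length, effective length, TPM (normalized within a library) and estimated counts of reads for each of 20375 genes, written with decimal commas. Dividing the authors' estimated counts by effective length and rescaling gave back the deposited TPM, within 1% plus 0.01 TPM, for all 20375 genes of each library. TPM is relative to all genes of a library, and a shift in effective length moves it at equal reads.

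Log2(TPM + 1) was tested with limma 3.58.1 in R 4.3.3, with a trend in the spread. The filter kept 12517 genes at or above 1 TPM in 4 or more of 12 libraries. There was 1 term per group, 9 residual degrees of freedom, and two-sided Benjamini-Hochberg adjustment at 0.05 over all tested genes. This scale understates the change of low genes. The procedure was tested on simulated data. Ratios are of mean TPM.

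The genes, the pathway lists and the markers were chosen with earlier results of these data known. All 10 genes are named. Of the other pathway genes, all tested receptors and signal-carrying SMADs are named, and from each other list, for each comparison with control, at most 3 genes that passed, taken in order of adjusted p. The E proteins are named with their count. The 5 genes most like ID1, and the 1 most like each other tested gene, were taken by Pearson's r; that for BMP2 is not reported here. Other genes in the figure are unselected members of the lists.

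Alternatives changed the pseudocount, the filter, the scaling, the use of reads (voom, log2 CPM), the libraries, the replicate block and the threshold. Replicate pairs differed beyond sampling noise (chi-square per degree of freedom 3.85 to 32.7), so none was merged. A count of 0 reads allows up to 3 reads, or 0.0827 CPM in the shallowest library, for counting error only. Promoter stretches are from RefSeq on GRCh38.p14.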

Additional observations from a re-analysis of the deposited data

Results flagged for a closer look

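A limit on the gap between 1 library and the other 3 of its group was applied to 111 groups of 4 values, those of the 10 genes, the other named pathway genes and the sums, shares and ratios given above. It was passed 5 times, and chance passes it in about 1 group in 20, or 5.55 of these, so the number of such libraries is no larger than chance gives.

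ID3 in plasma replicate 3 was at 153.95 TPM, above the other 3 plasma libraries at 150.48 to 150.75 TPM. The other plasma libraries lay unusually close together, and replicate 3 was still below every control library. BMPR1A was at 21.2 TPM in plasma replicate 3, against 19.5 to 19.7 in the others, and at 19.6 TPM in PRP replicate 4, against 21.0 to 21.3. FSTL1 was at 62.0 TPM in PRP replicate 3, below the 71.1 to 71.6 TPM of the others. PPM1A was at 54.8 TPM in plasma replicate 4, below the 60.4 to 61.2 TPM of the others.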

How the results depend on the processing

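The calls of ID1, ID3 and BMP4 against control held under all 22 alternatives, with log2 differences of 0.30 to 0.44 for ID1, -0.28 to -0.19 for ID3 and -0.70 to -0.56 for BMP4 with plasma, and 0.29 to 0.44, -0.42 to -0.31 and -0.68 to -0.58 with PRP. In alternatives that tested the same 8 genes, 3 to 4 were called with plasma, 3 to 5 with PRP and 0 between PRP and plasma. With no filter on low values 10 were tested and 4 (plasma) and 6 (PRP) called, beside 6257 and 6860 of all 17662 tested genes. With a filter of 5 TPM 5 were tested and 3 called in each, beside 5446 and 5860 of all 10450 tested genes. The count of other pathway genes called with plasma, 17, was 10 with a filter of 5 TPM, where fewer genes were tested, 11 without the 3 libraries numbered 1, with fewer samples, and 11 at a threshold of 0.01. Leaving out 1 library gave 13 to 17. With PRP the count of 13 ran from 9 to 18.

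ID2 with PRP lost its call in 8 of 21 alternatives, and the calls gained by BMP2 and MSX2 are given beside their values. Small differences changed sign. MSX2 with plasma was 0.0025 after median centring, 0.0065 after quantile normalization and 0.00081 with voom. SMAD6 with PRP was 0.053, 0.066 and 0.021 under the same settings, and -0.060 to 0.080 when 1 library was left out. BMP4 between PRP and plasma was -0.067 with voom, -0.075 with log2 CPM and -0.019 without the libraries numbered 1, and -0.032 to 0.063 with 1 library left out. Over the same omissions the differences between PRP and plasma spanned -0.042 to 0.018 for ID1, -0.32 to 0.0083 for ID2, -0.0093 to 0.23 for MSX1 and -0.012 to 0.057 for BMP2. The cause of these changes was not tested. Over all genes, the lower share of calls was 58.8% with plasma and 59.2% with PRP, and 45.9% and 46% after median centring.

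Replicate numbers are shared by the groups, and no label says that a number marks a shared culture or day. The main fit therefore left the numbers out. Of 12 pairs of same-numbered libraries, 5 deviated together with a correlation over 0.1 (range -0.07 to 0.30). By number, 7 of 12 correlated best with their own, more often than unrelated numbers would, so a pairing that the main fit ignores is possible. The 3 pairs of libraries numbered 1 did deviate together (0.15 to 0.30). With the replicate block the 8 genes gave 3, 4 and 0 calls and the other pathway genes 19, 14 and 0. All genes gave 6600, 7105 and 9 with the block, against 6173, 6652 and 8 without it. ID4, BAMBI and ID2 rest on few reads, which limits what could be detected for them.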
